A study of Mus musculus with 34 samples.

Results

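The promoters of the cytoplasmic ribosomal protein genes were followed through 19 lists of accessible sites made by ATAC-seq, an assay in which the Tn5 transposase cuts and tags open DNA. The genes were taken from the RefSeq table of the mouse mm10 assembly as protein-coding genes with an Rps or Rpl symbol followed by a number, together with Rpsa, Rplp0, Rplp1 and Rplp2. This gave 84 genes of the 21631 protein-coding genes on chromosomes 1 to 19 and X, with 32 for the small and 52 for the large subunit. The choice used symbols only. A gene was called in a list when a summit, the point of strongest signal of a peak, lay within 1 kb of either end of its annotated interval.

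The study used MEF, fibroblasts from mouse embryos, and EB, the embryoid bodies that embryonic stem cells form as they differentiate in suspension. The MEF are described as iHA-Etv2 cells, which carry an HA-tagged Etv2 switched on by doxycycline. Etv2 belongs to the ETS transcription factors and directs the formation of vessels and blood. The study comprised 34 samples in 17 groups of 2. The MEF groups were uninduced cells on day 0, cells with doxycycline (Dox) on days 1, 2 and 7, and a day-7 group marked as positive for Flk1, the VEGF receptor encoded by Kdr. A second MEF series was labelled as a knockdown (KD) of Brg1, the ATPase of the SWI/SNF remodelling complex: day 0, then days 1, 2 and 7 with and without Dox. A further series was EB with D25 in their titles and a time label of 12 h, without Dox, with Dox, and with Dox and Flk1-positive. They are called the 12 h EB here after that label, which was not taken as the age of the EB. How the D25 and 12 h labels relate was not given in the sources used here. The last was Brg1-floxed EB on day 4, all with Dox, with or without 4OHT (4-hydroxytamoxifen, the usual trigger of a tamoxifen-dependent Cre). The knockdown method, the Cre driver and the loss of Brg1 in these cells were not given in the sources used here. For 15 groups a single list stood for both samples, so no replicate error could be had, whereas each of the 4 floxed EB samples had a list of its own. Nothing in the labels says that the samples of a group came from separate cultures.

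Ribosomal protein genes encode the proteins that, with the ribosomal RNAs, build the small and large subunits of the cytoplasmic ribosome. They are transcribed in nearly every cell, in balanced amounts, from short CpG-rich promoters. Their messages begin with a run of pyrimidines, the terminal oligopyrimidine (TOP) start, through which mTOR signalling controls their translation, and many of their introns carry small nucleolar RNAs (snoRNAs). A few tissue-restricted copies exist, among them Rpl3l in striated muscle and Rpl10l and Rpl39l in the testis.

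The promoter sequences of 8 members are shown as examples. Some ranked high in the gene-end accessibility ranking described further on, and others ranked low or were absent from several lists. Not every low-ranking member is printed: Rpl12 and Rpl19, with median percentiles of 42.6 and 43.2, are left out. Each runs from 120 bases before to 10 bases after the annotated start (RefSeq, mm10), 5′ to 3′ on the gene's strand, and capitals mark the ETS core CCGGAAG or its reverse complement CTTCCGG. Rpl37, Rps21, Rpl15, Rpl22l1 and Rps19 ranked high.
Rpl37 (chr15:5116493-5116622, plus strand): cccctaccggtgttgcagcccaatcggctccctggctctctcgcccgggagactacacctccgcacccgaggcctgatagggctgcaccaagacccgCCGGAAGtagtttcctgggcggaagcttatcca
Rps21 (chr2:180257259-180257388, plus strand): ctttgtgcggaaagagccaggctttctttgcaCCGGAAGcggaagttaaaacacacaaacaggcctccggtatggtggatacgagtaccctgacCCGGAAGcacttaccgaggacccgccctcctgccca
Rpl15 (chr14:18270977-18271106, minus strand): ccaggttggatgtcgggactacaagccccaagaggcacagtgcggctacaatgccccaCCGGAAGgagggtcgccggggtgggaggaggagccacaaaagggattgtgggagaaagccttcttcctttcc
Rpl22l1 (chr3:28805388-28805517, plus strand): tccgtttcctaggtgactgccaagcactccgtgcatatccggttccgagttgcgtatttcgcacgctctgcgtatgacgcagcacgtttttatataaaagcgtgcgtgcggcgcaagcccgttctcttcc
Rps19 (chr7:24884472-24884601, plus strand): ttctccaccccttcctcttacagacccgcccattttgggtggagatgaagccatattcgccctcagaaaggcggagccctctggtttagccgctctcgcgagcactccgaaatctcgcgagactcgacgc
By gene end, Rpl38, Rps4x and Rpl10l were absent from several lists or ranked low, but Rpl38 had a summit at its start in 18 lists.
Rpl38 (chr11:114668460-114668589, plus strand): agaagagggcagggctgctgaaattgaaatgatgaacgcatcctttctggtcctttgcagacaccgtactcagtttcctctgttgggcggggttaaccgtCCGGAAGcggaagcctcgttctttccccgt
Rps4x (chrX:102189382-102189511, minus strand): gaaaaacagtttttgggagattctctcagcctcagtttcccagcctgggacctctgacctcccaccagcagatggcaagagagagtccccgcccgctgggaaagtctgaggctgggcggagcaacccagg
Rpl10l (chr12:66284392-66284521, minus strand): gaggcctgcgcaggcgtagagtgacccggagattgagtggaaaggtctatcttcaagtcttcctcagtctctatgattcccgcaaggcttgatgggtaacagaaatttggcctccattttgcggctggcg
In these stretches the ETS core stood 23 bases before the start of Rpl37, 88 and 26 bases before that of Rps21, 62 bases before that of Rpl15 and 20 bases before that of Rpl38. High-ranking members held it, as did Rpl38, which was low by gene end only, and Rpl22l1 and Rps19 ranked high without a match in the 300 bases searched. Rpl19, not printed, held it 39 bases before its start. It was low by gene end but had a start summit in 17 lists.

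A set of 6 sequence features was searched in the promoter table, which covers 250 bases before to 50 after the start for 64 of the 84 members and for 17274 genes in all. The ETS core, the element shared by the sites of Etv2 and other ETS factors, was found on either strand in 26 of the 64 members (40.6%), against 13.1% of all promoters and 20.5% of the 9871 promoters with a start summit in uninduced MEF. The TOP start, searched on the gene's strand as a C followed by at least 4 pyrimidines within 10 bases of the annotated start, was found in 40 members (62.5%), against 35.3% of all promoters and 36.9% of those with a start summit. The YY1 element AAGATGGC was found in 6 members (9.38%), against 3.59% and 5.3%. For the Sp1 and TATA boxes the direction depended on which promoters the members were set against. The Sp1 box GGGCGG was in 39 members (60.9%), above the 49.8% of all promoters and below the 71.0% of those with a start summit. TATAAA was in 8 (12.5%), below 14.9% and above 8.38%. The CCAAT box was in 19 (29.7%), below both 42.7% and 43.8%. These too were searched on either strand. The median GC content of the members' promoters was 56.8%, against 56.7% over all, while their median number of CpG dinucleotides was 21 in 300 bases against 14. Among all promoters with a start summit in uninduced MEF the CpG median was also 21. A match is a string of letters and was not tested as a bound site.

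The lists differed in length. They held from 11188 summits (KD without Dox, day 7) to 85498 (EB without Dox), and from 21.0% to 55.4% of their summits lay at the end of a protein-coding gene. The day-7 KD lists stood apart from all others, with 11188 and 13644 summits and the lowest median scores, 4.52 and 5.05 on the −log10 q scale of the peak caller, against 5.8 to 12.5 elsewhere. The labelled tissues were checked at the gene ends of marker genes: of 8 fibroblast markers 6 were called in uninduced MEF, but also 6, 5 and 6 in the 12 h EB lists, so their gene ends did not set MEF and EB apart. Of 8 pluripotency and early EB markers none was called in any MEF list, all 8 in each 12 h EB list and 5 or 6 in floxed EB. The day-7 KD lists held at most 2 fibroblast markers.

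**Figure D1:**
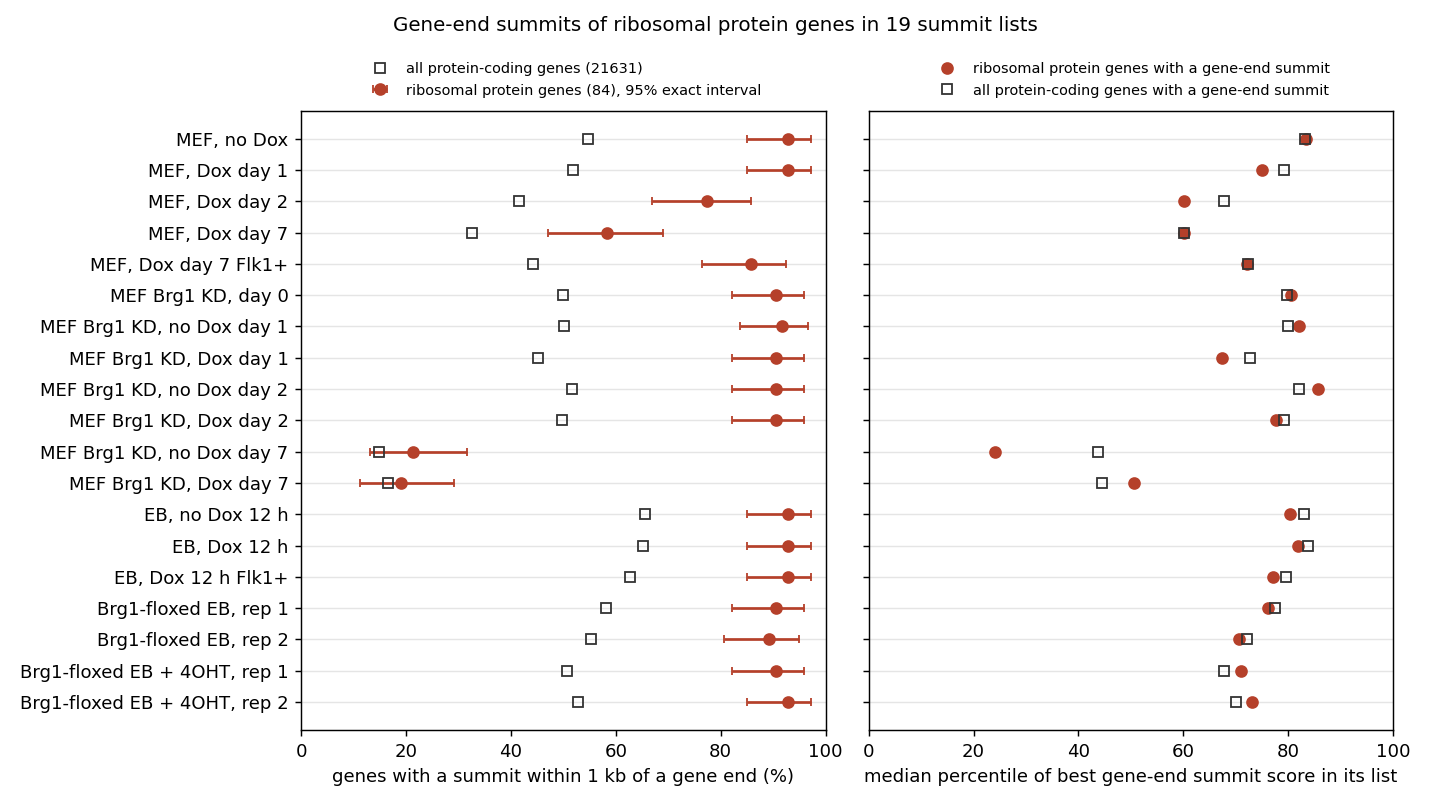
Ribosomal protein gene promoters in the 19 lists. Left, the percentage of the 84 ribosomal protein genes called in each list with its 95% exact interval, beside the percentage of all 21631 protein-coding genes; right, the median percentile of the best gene-end summit within its own list for called ribosomal protein genes and for all called genes. The members lie far above all genes in the left panel except in the day-7 KD lists, and lie on either side of all called genes in the right panel, furthest below in KD without Dox on day 7 (24.1 against 43.7).

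Most ribosomal protein promoters were called in most lists. In uninduced MEF 78 of 84 members had a gene-end summit (92.9%, 95% Clopper-Pearson interval 85.1 to 97.3), against 54.7% of all protein-coding genes. The same number, 78, was called on day 1 of Dox (all genes 51.8%), in each of the 12 h EB lists (65.6% without Dox, 65.2% with Dox, 62.8% Flk1-positive) and in floxed EB with 4OHT replicate 2 (52.8%). In KD MEF the count was 76 on day 0 (all genes 49.9%), 77 and 76 without Dox on days 1 and 2 (50.2% and 51.6%), and 76 with Dox on both days (45.1% and 49.7%). The remaining floxed EB samples had 76 and 75 without 4OHT (58.1% and 55.2%) and 76 with 4OHT replicate 1 (50.7%). Outside the day-7 KD lists, 3 lists held fewer than 75 members. MEF with Dox had 65 on day 2 (77.4%, 67.0 to 85.8; all genes 41.5%) and 49 on day 7 (58.3%, 47.1 to 69.0; 32.5%), and Flk1-positive MEF had 72 (85.7%, 76.4 to 92.4; 44.3%). In a list of this kind, fewer cells with an open promoter and less opening per cell cannot be told apart. The intervals cover counting over genes only, not the spread between samples.

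The day-7 KD lists held few members. The list without Dox had 18 (21.4%, 13.2 to 31.7) and the list with Dox 16 (interval 11.3% to 29.1%), beside 14.9% and 16.6% of all genes. These shares are near the background of their lists. Both lists are also the shortest of the 19. With every list reduced to 11188 summits the counts were 18 and 12 there (all genes 14.9% and 12.6%), against 56 in KD MEF on day 0 (32.7%).

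The rank of the called members was closer to that of other genes than their presence was. The best gene-end summit of each called gene was placed by its percentile, the share of its own list with a score at or below it. The members' median percentile was 83.3 in uninduced MEF, where all called genes had 83.1. In the EB lists without Dox, with Dox and Flk1-positive it was 80.4, 81.9 and 77.0, against 82.9, 83.8 and 79.6. In MEF with Dox on day 2 the members had 60.2 and all called genes 67.8, and on day 7 both had 60.1. The members' median lay above that of all called genes in KD MEF on day 0 (80.5 against 79.8), without Dox on days 1 and 2 (82.0 against 79.9 and 85.7 against 82.1) and with Dox on day 7 (50.5 against 44.5), and in both 4OHT samples (70.9 against 67.7 and 73.0 against 70.1). It lay below in KD MEF with Dox on days 1 and 2 (67.3 against 72.7 and 77.7 against 79.2), and furthest below without Dox on day 7 (24.1 against 43.7, over 18 called members). The direction thus differed from list to list.

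The top 10% of each list held a smaller share of the called members than of all called genes in each of the 19 lists. In uninduced MEF 23 of the 78 called members (29.5%) had their best summit there, against 33.7% of all called genes. With Dox the counts were 13, 5 and 1 on days 1, 2 and 7 (all called genes 28.0%, 15.2% and 7.09%), the last being Rpl22l1, and 11 in Flk1-positive cells (20.7%). Day 0 of KD MEF had 18 (27.4%), days 1 and 2 without Dox had 18 and 23 (27.7% and 31.1%), and the same days with Dox had 8 and 18 (19.5% and 27.8%). The gap was small in some of these lists, such as KD without Dox on day 2 with 30.3% of members, and wider in EB. EB had 15 without Dox (19.2% of members against 31.3%), 17 with Dox (31.8%) and 13 in Flk1-positive cells (25.1%). The floxed samples had 13 and 9 without 4OHT (23.9% and 19.3%) and 9 and 11 with 4OHT (16.2% and 17.3%). The day-7 KD lists had 0 members there, against 0.311% of all called genes without Dox and 0.25% with Dox. When each list was shortened to its 11188 highest-scoring summits, 44 members remained called in uninduced MEF (52.4%, all genes 28.5%), 56 in KD MEF on day 0 (66.7%, 32.7%) and 18 in EB without Dox (21.4%, 26.1%). So in the longest list the members were called no more often than other genes when only the strongest summits were kept, whereas in floxed EB the counts were 61, 61, 67 and 70 members, against 40.6% to 40.9% of all genes.

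**Figure D2:**
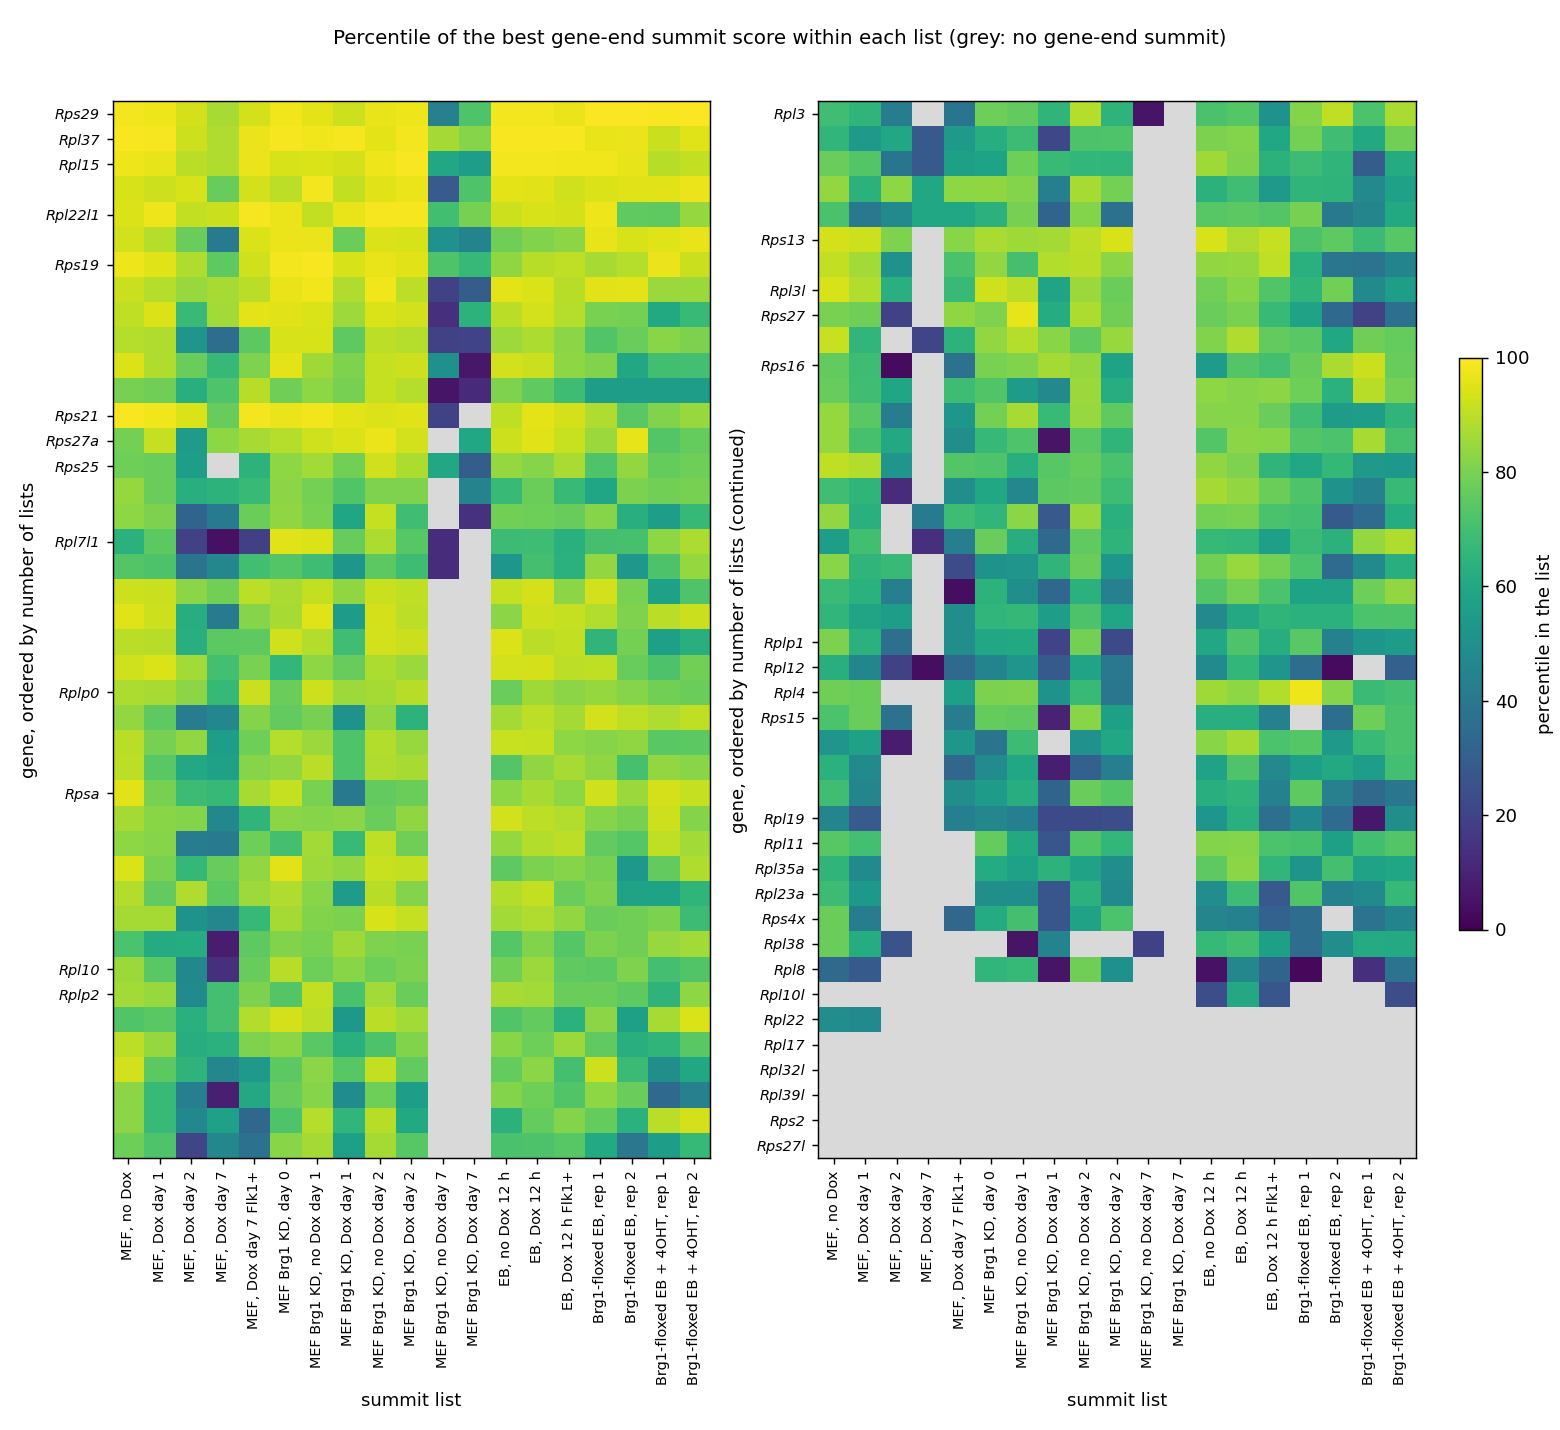
Percentile of the best gene-end summit of each of the 84 ribosomal protein genes (rows) within each of the 19 lists (columns), on a colour scale from low to high, with grey for no summit and with some of the genes labelled. Rows such as Rps29 and Rpl37 are high in nearly all columns, the day-7 KD columns are mostly grey, and 5 rows are grey throughout.

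Across the lists, 12 of the 84 members were called in all 19, against 10.3% of all genes. In the 17 lists other than the day-7 KD lists, 45 were called in all, against 28.9%. At the other end 5 members, Rpl17, Rpl32l, Rpl39l, Rps2 and Rps27l, were called in none, against 29.0%. A further 65 members were called in 13 to 18 lists and only 2, Rpl10l and Rpl22, in 1 to 12. By gene end the members thus fell into a majority called in most lists and a few absent genes. Of the 5 absent, Rps2 and Rps27l were called by start in 18 and 17 lists, and Rpl17 within 2 kb in 17.

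The members called in every list included zinc-binding proteins of both subunits, Rps29 with a median percentile of 97.3 over lists and Rpl37 with 97.0. Among the others were Rpl15 (96.1), Rpl22l1 (93.4), the paralog of Rpl22, and Rps19 (91.8), the small-subunit protein most often mutated in Diamond-Blackfan anaemia. Rpl34 (89.7), Rpl7 (88.8), Rps3a1 (82.2), Rpl30 (81.2) and Rpl37a (75.4), another zinc-binding protein, were also called in every list. The 12 came from both subunits, with 4 small-subunit and 8 large-subunit genes.

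Rpl37 had the highest percentile of all members in 9 of the 19 lists. Its percentile was 99.0 in uninduced MEF, 98.5, 92.3 and 88.1 with Dox on days 1, 2 and 7, and 96.9 in Flk1-positive cells. In KD MEF it was 98.8 on day 0, 97.9 and 96.0 without Dox and 98.6 and 98.1 with Dox on days 1 and 2, and 86.5 without and 81.9 with Dox on day 7. In EB it was 98.9, 99.1 and 99.1, and in floxed EB 96.7 and 97.0 without and 92.0 and 95.2 with 4OHT. No list placed Rpl37 below 81.9, and its lowest values were those of the day-7 KD lists.

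Rps29 led in the floxed EB samples. It had 99.6 and 99.5 there without 4OHT and 99.2 and 99.4 with 4OHT, ranking 131, 113, 153 and 117 among all summits of its list. In MEF it had 98.4 without Dox, 97.6, 93.5 and 86.8 with Dox on days 1, 2 and 7, and 93.5 in Flk1-positive cells. The KD lists gave 97.7 on day 0, 92.3 to 97.3 on days 1 and 2, and 43.7 and 72.6 on day 7. Its gene-end summit was therefore among the strongest of the floxed EB lists but not of the day-7 KD lists. Rps29 has no promoter entry, so its summit was not placed relative to its start.

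Other members changed place from list to list. Rps21 led in MEF with Dox on day 2 with 94.4 and had 98.9 in uninduced MEF, 97.1 in KD MEF on day 0, 90.6 in EB without Dox and 88.1, 74.6, 81.0 and 84.7 in floxed EB. Rpl22l1 led on day 7 of Dox with 92.1 and in the Flk1-positive list with 98.6. Rpl15 led in KD MEF with Dox on day 2 with 98.9 and Rps19 in KD MEF without Dox on day 1 with 99.2. These are places within single lists, and places in lists of different length show no change between them.

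The weakest called members recurred as well. Rpl8, a large-subunit protein near the peptidyl transferase centre, was called in 13 lists, at a percentile of 34.6 in uninduced MEF, 28.5 on day 1 of Dox, 4.79, 46.3 and 32.3 in EB without Dox, with Dox and Flk1-positive, and 66.0 in KD MEF on day 0. Rps4x, the X-linked gene of a small-subunit protein, was called in 14, at 77.6 and 41.9 in MEF without Dox and on day 1, and at 35.6, 38.2 and 45.3 in the 3 floxed EB samples that held it. Rpl19 was called in 15, with a highest percentile of 63.6 in EB with Dox and a lowest of 6.3 in floxed EB with 4OHT replicate 1. Its RefSeq interval extends 4707 bp past the annotated start, and by start it was called in 17 lists. The percentiles of Rpl19 are thus those of its gene ends, not of its start. Rpl12 had 62.6 in uninduced MEF, 3.62 on day 7 of Dox and 2.82 in floxed EB without 4OHT replicate 2. Each of these genes had a list in which most summits scored higher than its own gene-end summit.

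Rpl11 and Rpl23a were called in 14 lists each, as was Rpl35a. Rpl11, which binds Mdm2 when ribosome assembly is disturbed, had 73.9 in uninduced MEF and was absent from MEF with Dox on days 2 and 7 and from the Flk1-positive list. Rpl23a, which lies at the exit of the nascent chain, had 68.4 and was absent from the same 3 lists, as was Rpl35a with 65.3. All 3 were also absent from both day-7 KD lists.

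The stalk proteins, which recruit the translation factors to the large subunit, differed among themselves. Rplp0, the base of the stalk, had 87.6 in uninduced MEF, 82.8 and 67.1 on days 2 and 7 of Dox, and 77.1 to 85.7 in the 12 h EB lists. Rplp2 had 86.2, 47.3 and 70.0 in the same MEF lists and 77.2 to 87.0 in EB. Rplp1 was lower in uninduced MEF, with 80.1, had 36.8 on day 2 and was absent on day 7, and had 59.9 to 72.5 in EB. Rpsa, the small-subunit protein also known as the laminin receptor, had 95.5 in uninduced MEF, 79.4, 68.4 and 67.1 with Dox on days 1, 2 and 7 and 85.0 to 93.7 in floxed EB. None of these 4 was called in either day-7 KD list.

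Several of the copies had little or no summit of their own. Rpl39l and Rpl32l were called in no list at either window or at the start. Rpl10l was called in 4, at 23.9, 60.4 and 26.9 in EB without Dox, with Dox and Flk1-positive and at 23.6 in floxed EB with 4OHT replicate 2. Its parent Rpl10, on the X chromosome, was called in all 17 lists other than day-7 KD, at 84.8 in uninduced MEF and 78.9 in EB without Dox. Rpl3l was called in 16 lists by its gene end and in 0 by its start: its best summit lay 373 to 736 bp from its own end and 5 to 286 bp from the end of the neighbouring gene Msrb1, so the call of Rpl3l is a summit near Msrb1.

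Rps2, Rps27l, Rpl22 and Rpl17 were called in few or no lists by gene end and in most by start or in the wider window. Rps2, a small-subunit protein at the entry of the messenger RNA, was called in 0 lists by gene end but in 18 by start, and its RefSeq interval (chr17:24718121-24721927) extends 1942 bp past the annotated start. Rps27l (chr9:66944624-66949522, 1462 bp) was called in 0 by gene end and 17 by start, and Rpl22, which has 2 starts in the promoter table, in 2 and 17. Rpl17 was called in 0 lists within 1 kb and in 17 within 2 kb. Counted at the start, 60 of 64 members were called in uninduced MEF (93.8%, all genes 57.1%), and the 4 without were Rpl10l, Rpl32l, Rpl39l and Rpl3l, all of them named as like another ribosomal protein gene. With Dox the start count was 60, 52 and 42 on days 1, 2 and 7 (all genes 54.7%, 45.1% and 35.5%) and 57 in Flk1-positive cells (47.9%). In KD MEF it was 60 on day 0 (53.4%), 59 and 60 without Dox (53.7% and 54.8%) and 58 and 60 with Dox (49.0% and 53.0%) on days 1 and 2. Each 12 h EB list had 61 (67.4% without Dox, 67.4% with Dox, 65.6% Flk1-positive), and the floxed samples had 59 and 58 without 4OHT (61.5% and 58.5%) and 59 and 61 with 4OHT (54.2% and 56.3%). So the start count, too, stood well above that of all genes except on day 7 of KD, where it was 12 and 11 without and with Dox (18.8% against 16.1%, and 17.2% against 17.9%). Over the 17 other lists, 38 members had a start summit in all (all genes 32.0%) and 3 in none (28.8%).

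**Figure D3:**
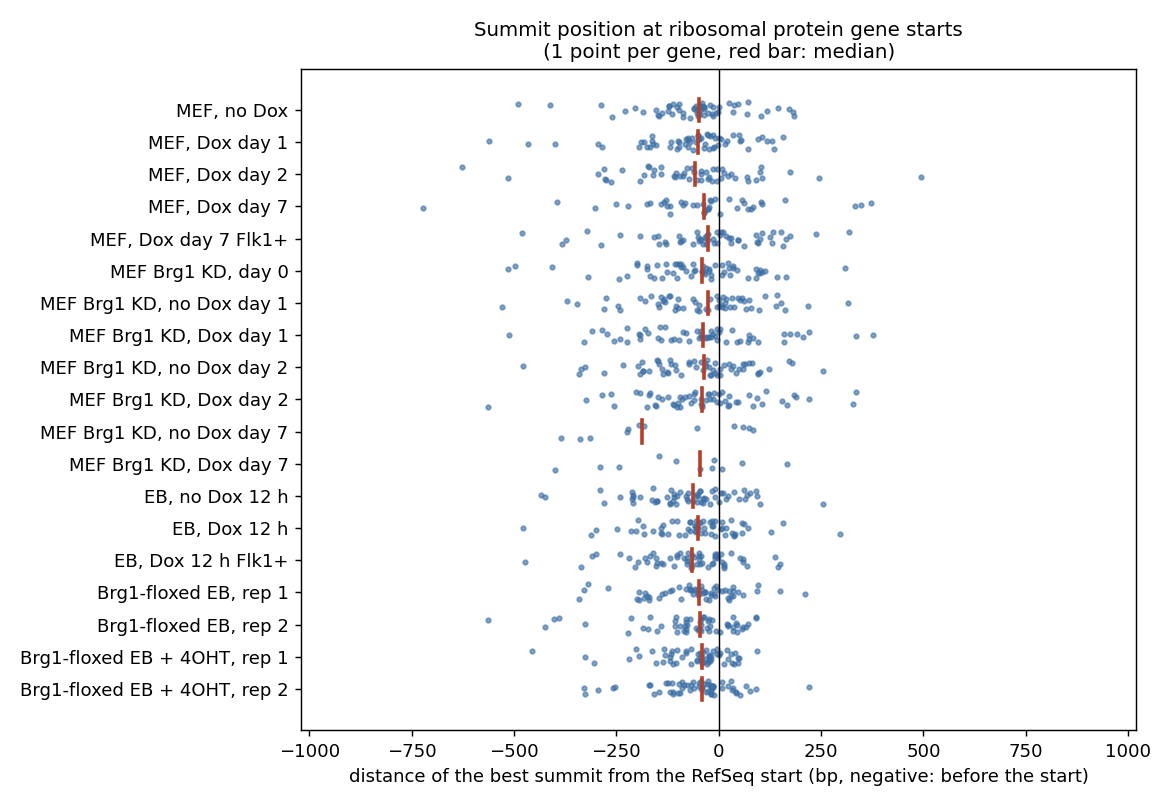
Distance in bp from the annotated start to the best start summit of each ribosomal protein gene (points, negative is upstream) in each list, with the median as a red bar. Points cluster just upstream of the start in every list, with medians between -65 and -26 bp except in the sparse day-7 KD list without Dox.

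The summits sat close to the annotated start, mostly upstream of it. In uninduced MEF the median position was -48 bp over 60 members, with 49 within 150 bp. In the 18 lists other than KD without Dox on day 7 the medians ran from -65 to -26 bp, and that list had -188 bp over 12 members. Of the 55 members with a start summit in at least 15 of the 17 other lists, 41 had an upstream median. Over these 17 lists the position of a member's best summit varied by a median range of 214 bp, so it was not fixed to a base. It stayed within 100 bp for 5 genes: Rpl22l1 (74 bp), Rps21 (86), Rpl27 (90), Rpl34 (93) and Rpl15 (99). It ranged over more than 500 bp for Rpl10 (609), Rpl38 (602) and Rpl7l1 (544). The summit of Rps21 lay between -222 and -107 bp in each of its 18 lists, near or beyond the upstream end of the sequence printed for it.

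The Dox time course of MEF was compared by list membership, with the uninduced list as the shared control of each comparison. On day 1 none of the 78 members was absent that had been present (all genes 6.88% absent). On day 2, 13 were absent (16.7%, all genes 24.6%), among them Rpl4, Rps3, Rpl11, Rpl29, Rps28, Rpl35a, Rpl6, Rpl23a, Rpl22, Rps4x, Rpl19 and Rpl8. On day 7, 29 were absent (37.2%, all genes 40.8%), among them Rps13, Rpl36a, Rpl4, Rps25, Rpl3l, Rps27, Rps16 and Rpl9. The Rpl3l call is the summit near Msrb1 and not one at its own start. In Flk1-positive cells 6 were absent (7.69%, all genes 19.9%), namely Rpl11, Rpl35a, Rpl38, Rpl23a, Rpl22 and Rpl8. All these calls are by gene end. By start, Rpl38 and Rpl22 had a summit in the Flk1-positive list, Rpl19 and Rpl22 on day 2, and Rpl19, Rpl22 and Rpl38 on day 7. No member was present in an induced list and absent from the uninduced one, where all genes gave 0.906%, 0.282%, 0.162% and 0.481% in the same order. Only the 6 members not called in the uninduced list could be gained, so the lack of gains was nearly set in advance.

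List length moved with these counts, from 62028 summits without Dox to 50015, 26217 and 18418 on days 1, 2 and 7 and 29520 in Flk1-positive cells. At 11188 summits a list the members called were 44, 33, 35, 37 and 46, so the fall from 78 to 49 became one from 44 to 37. The share of all genes at that length went from 28.5% to 23.2%. Of the 8 fibroblast markers, 6 were called in the uninduced list, 3 on days 2 and 7 and 5 in Flk1-positive cells, and the part of the cell mixture in the members' counts was not tested. Against the unsorted day-7 list, the Flk1-positive list held 23 further members and lacked none, while 12.5% of all genes were gained and 2.17% of the genes called on day 7 were absent. Rps13, Rpl36a, Rpl4, Rps25, Rpl3l, Rps27, Rps16 and Rpl9 were among the 23, the same 8 that were named as absent on day 7. For Rpl3l this is again the summit near Msrb1. The sort and the list length cannot be told apart in this comparison.

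The members absent from a later list had a lower median rank in the control list than those kept. The 49 kept on day 7 had a median day-0 percentile of 87.6 (56.1 to 99.0) and the 29 absent 75.8 (34.6 to 94.1). All genes had 90.9 kept and 62.3 absent. On day 2 the medians were 84.2 kept and 68.4 absent for the members, against 88.3 and 48.3 for all genes. The ranges of kept and absent members overlapped in each comparison. By promoter sequence, 7 of 23 members with the ETS core were absent on day 7 (30.4%, all genes with the core 32.6%) and 15 of 36 without it (41.7%, all genes without it 41.5%), so each share lay near that of all genes with the same feature. Absence was scored by gene end here, while the core was searched at the start. Rpl19 and Rpl38, which hold the core, and Rpl22, which does not, had a start summit on day 7 but were counted as absent.

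**Figure D4:**
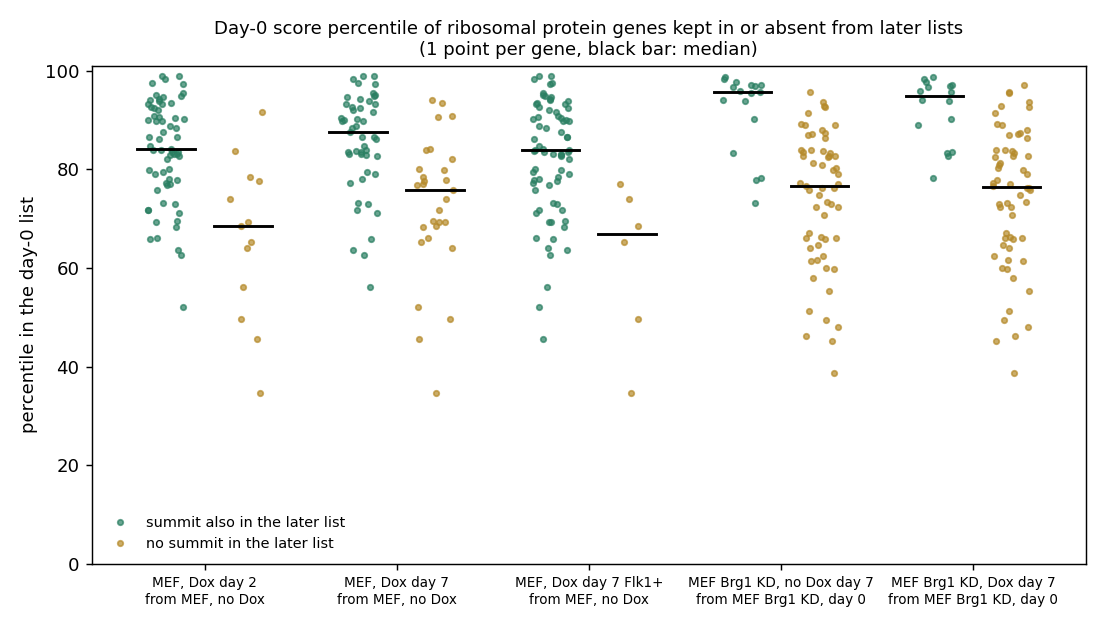
Percentile in the control list (day 0) of ribosomal protein genes that were kept in or absent from a later list, one point per gene. Absent genes have the lower median and the ranges overlap, as for day 7 of Dox (medians 75.8 absent and 87.6 kept).

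In KD MEF the Dox comparisons on days 1 and 2 left nearly all members called in the full lists. On day 1 with Dox 1 member was absent of 77 (1.3%, all genes 11.6%), and on day 2 none of 76 (all genes 7.11%). None was gained on either day, where all genes gave 0.758% and 1.74%. Only the 7 and 8 members not called without Dox on these days could be gained. At equal list length 20 and 18 members entered or left on these days, and 34 and 12 with scores of at least 10. At equal length the members called went from 70.2% without to 56.0% with Dox on day 1 (all genes 33.8% to 30.4%). On day 2 they went from 71.4% to 57.1% (all genes 32.4% to 31.6%). With scores of at least 10 they went from 81.0% to 42.9% (39.3% to 25.4%) and from 83.3% to 73.8% (41.1% to 37.7%). The share of all genes that entered or left is not given here. By gene end, the day-0 KD list lacked Rpl38 and Rpl22 relative to uninduced MEF without the knockdown (2.56%, all genes 10.5%). It gained none (all genes 0.934%), where only the 6 members not called in uninduced MEF could be gained. By start, both genes had a summit in the day-0 KD list, 308 and 34 bp after the annotated start. That list held 36730 summits against 62028, and knockdown and list length cannot be told apart.

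On day 7 the KD lists shared 13 members, among them Rpl15, Rpl22l1, Rpl30, Rpl34, Rpl37, Rpl37a, Rpl7, Rps19, Rps25, Rps29 and Rps3a1. The list without Dox alone held Rps21, Rpl3, Rpl7l1, Rpl7a and Rpl38, and the list with Dox alone Rps27a, a fusion of ubiquitin and a small-subunit protein, Rpl10a and Rps18. The share absent with Dox was 27.8% of 18, against 26.9% of all genes called without Dox, and 5.76% of all genes were called with Dox only. Against KD day 0, a comparison added after the data were seen, 59 of 76 members were absent without Dox (77.6%, all genes 70.6%) and 60 with Dox (78.9%, 67.0%). The members kept without Dox had a median day-0 percentile of 95.6 and those absent 76.7. At equal list length the count was 56 on day 0, 18 on day 7 without Dox and 12 with Dox, and the share of all genes was 32.7%, 14.9% and 12.6%. By contrast the lists without Dox on days 1 and 2 held all 76 members of the day-0 list by gene end. Rpl38 was added on day 1 (all genes gained 2.19% on day 1 and 3.29% on day 2), though it had a start summit on day 0 as well.

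In the 12 h EB lists membership did not move. The same 78 members were called without Dox, with Dox and in Flk1-positive cells, while 2.75% of all genes called without Dox were absent with Dox, 5.54% of them were absent from the Flk1-positive list, and 4.77% of those called with Dox were absent from the Flk1-positive list. No member was gained, where all genes gave 1.38%, 0.837% and 0.73% in the same order. Only the 6 members not called in the control list could be gained in each comparison. The first and second of these comparisons share the list without Dox. At equal list length 18, 28 and 34 members were called (21.4%, 33.3% and 40.5%), against 26.1%, 29.4% and 29.9% of all genes. The constant count of 78 thus belongs to the full lists.

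The Brg1-floxed EB are the only lists with replicates. The share of members called was 90.5% and 89.3% without 4OHT and 90.5% and 92.9% with 4OHT. The means were 89.9% ± 0.842 (SD, n = 2) and 91.7% ± 1.68 (SD, n = 2), a difference of 1.79 percentage points with an exact two-sided permutation p of 0.667, where 2 against 2 cannot go below 0.333. The difference was 8.33 points with scores of at least 10 (exact permutation p of 0.667) and 8.93 at equal list length (exact permutation p of 0.333). For all genes the means were 56.6% ± 2.05 and 51.8% ± 1.51 (SD, n = 2), a difference of -4.88 with an exact permutation p of 0.333. Whether members and all genes differ in this was not tested. Of the 84 members 73 were called in all 4 samples (all genes 47.3%), 6 in none, and 5 in some: Rpl10l, Rpl12, Rpl8, Rps15 and Rps4x. No member was called in both samples of one group and neither of the other, where all genes gave 0.268% for 4OHT only and 2.76% for no 4OHT only. The members' median percentile was 76.1 and 70.6 without 4OHT and 70.9 and 73.0 with 4OHT, beside 77.5, 72.2, 67.7 and 70.1 for all called genes.

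The members were also divided by subunit, neighbouring genes and snoRNAs. In uninduced MEF 30 of 32 small-subunit and 48 of 52 large-subunit genes were called, with median percentiles of 82.8 and 83.6. Of the 30 members with the end of another protein-coding gene within 1 kb (all genes 25.1%), 29 were called, and of the other 54, 49. For those 30 a summit cannot be assigned to one of the neighbours. Of the 30 members that host snoRNAs, 59 snoRNAs in all, 28 were called, and of the other 54, 50. The median percentiles of these groups lay close together there, and further apart in other lists. On day 7 of Dox they were 46.3 for snoRNA hosts and 63.9 for the others, and 46.4 with and 62 without a shared gene end. On day 2 they were 49.7 for snoRNA hosts and 62.3 for the others. The direction differed between lists, for snoRNA hosts had the higher median in Flk1-positive MEF (74.9 against 71.1). The same held in floxed EB without 4OHT (78.3 against 73.7 and 74.3 against 66.7) and with 4OHT (71.6 against 65.5 and 77.8 against 69.3). In Flk1-positive MEF 30 of 32 small-subunit and 42 of 52 large-subunit genes were called, and in KD without Dox on day 7 their medians were 36.2 over 6 genes and 19.6 over 12. These differences were not tested.

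Other genes of the translation machinery were counted in the same way. Of 23 genes with TOP starts or ribosome-associated roles, 23 were called in uninduced MEF (all genes 54.7%), 19 on day 7 of Dox (82.6%, all genes 32.5%), and 9 and 14 in the day-7 KD lists without and with Dox (39.1% and 60.9%, all genes 14.9% and 16.6%), with 7 in every list (30.4%, all genes 10.3%). Their median percentile in uninduced MEF was 91.4, and the highest over lists were Nap1l1 (95.6), a histone chaperone, Eif3f (95.3), an initiation factor subunit, Tpt1 (93.6) and Hnrnpa1 (93.5). Eif3l was called in 14 lists, and Fau and Btf3 in 16 each. Of 30 ribosome biogenesis genes, 29 were called in uninduced MEF (96.7%), 22 on day 7 of Dox (73.3%), and 10 and 11 in the day-7 KD lists (33.3% and 36.7%). Rrp9 (95.6), Rrs1 (95.2), Nop14 (94.9) and Ncl (94.1), the gene of nucleolin, ranked highest, while Ubtf, an RNA polymerase I factor, was called in 0 lists and Tsr1 in 11. Of 78 mitochondrial ribosomal protein genes, 74 were called in uninduced MEF (94.9%), 44 on day 7 of Dox (56.4%) and 15 and 17 in the day-7 KD lists (19.2% and 21.8%), with a median percentile of 84.6 in uninduced MEF. Mrps28 (98.3) and Mrps14 (97.2) ranked highest of these, and Mrpl18, Mrpl24 and Mrpl4 were called in 0 lists.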

How the data were processed

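Chromatin accessibility was measured by ATAC-seq in 34 mouse samples. Reads were aligned with Bowtie2 2.2.4 to mm10 and MACS2 and HOMER were used, per the submitters' processing notes. The deposited files are summit lists, 15 for groups of 2 samples and 4 for single samples, whose score is a −log10 q value. All scores the authors deposited exceeded 1.30, a q value of 0.05. How 2 samples became 1 list, and any duplicate removal, Tn5 shift or blacklist, are not given in the sources used here. Read depth was not analysed here, and the score grows with it, so scores were ranked only within a list.

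Summits were matched to RefSeq gene ends (within 1 kb) and to starts of the promoter table with Python 3.11.15, pandas 2.3.3 and numpy 2.4.6, and the matching was tested on simulated summits. Exact Clopper-Pearson intervals (95%) and exact two-sided permutation tests used scipy 1.17.1. The members, gene lists and tests were chosen with earlier results of these data known. Any member could be named. Those absent from most lists, those with the highest and lowest percentiles, those that changed membership, the copies and the stalk proteins came first. Of other lists up to 4 genes at each end were named. Replicate numbers of the floxed samples were not taken as pairs. The alternatives were gene-end windows of 500 bp and 2 kb, a score of at least 10, equal list lengths, starts only and ranks among gene-end summits. Results for some genes are not reported here.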

Additional observations from a re-analysis of the deposited data

How the results depend on the processing

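The number of members called, and their rank, depended on list length and on the score limit more than on the window. Causes were not tested beyond what each setting does by construction. The top-10% counts below, and the counts of members that entered or left, carry no share over all genes under the same setting. Those counts therefore show how the members' numbers move with the setting, not how members compare with other genes.

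With each list shortened to its 11188 highest-scoring summits, the members called were 44, 33, 35 and 46 in MEF without Dox, with Dox on days 1 and 2 and Flk1-positive, 47 and 48 in KD MEF with Dox on days 1 and 2, and 18, 28 and 34 in EB without Dox, with Dox and Flk1-positive. All genes had 28.5%, 27.2%, 25.6% and 27.1% in these MEF lists, 30.4% and 31.6% in these KD lists, and 26.1%, 29.4% and 29.9% in these EB lists. In the top 10% there were then 3, 2, 0, 0 and 4 in MEF without Dox, with Dox on days 1, 2 and 7 and Flk1-positive, 5 in KD on day 0, 6 and 3 in KD without Dox and 3 and 5 with Dox on days 1 and 2, 1 in each 12 h EB list, 6 in floxed EB without 4OHT replicate 1, and 4 in each 4OHT sample. The members called in every list were 7. The members that entered or left a list were 17 for MEF on day 1, 19 on day 7 and 14 for Flk1-positive against uninduced MEF, 20 and 18 for KD with against without Dox on days 1 and 2, 20 for KD day 0 against MEF, 10 and 20 for EB with Dox and Flk1-positive against EB without Dox, 14 for Flk1-positive against Dox in EB, and 11 and 12 for KD without Dox on days 1 and 2 against day 0.

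Ranked among gene-end summits only, the top 10% held 5, 6, 6 and 7 members in MEF without Dox, with Dox on days 1 and 7 and Flk1-positive, 11 in KD on day 0, 8 and 7 in KD without Dox on days 1 and 2, 6 in KD with Dox on day 2, 2 and 4 in KD on day 7 without and with Dox, 5, 6 and 3 in the EB lists, 7 in floxed EB without 4OHT replicate 1, and 5 and 6 in the 4OHT samples.

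With scores of at least 10, the members called were 18, 14 and 46 in MEF with Dox on days 2 and 7 and Flk1-positive, 36 in KD with Dox on day 1, and 1 and 2 in KD on day 7 without and with Dox, and 1 member was in every list. On day 2 of Dox this was 21.4% of members against 20% of all genes, and on day 7 16.7% against 10.7%. In Flk1-positive MEF it was 54.8% against 28.0%, and in KD with Dox on day 1 42.9% against 25.4%. In KD on day 7 it was 1.19% against 0.952% without and 2.38% against 1.46% with Dox. Those that entered or left were 8, 58, 62 and 30 in MEF on days 1, 2 and 7 and Flk1-positive against uninduced MEF, 34, 12 and 1 in KD with against without Dox on days 1, 2 and 7, 10 for KD day 0 against MEF, 3 and 8 for EB with Dox and Flk1-positive against EB without Dox, 9 for Flk1-positive against Dox in EB, and 8 and 6 for KD without Dox on days 1 and 2 against day 0.

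By start alone 7 members were in every list. Without the 2 day-7 KD lists, a setting chosen after seeing the data, the count was 45. Within 2 kb, the top 10% held 2 members on day 7 of Dox, and 0 members entered or left for KD day 0 against MEF and for KD without Dox on day 1 against day 0. Within 500 bp those that entered or left were 2 for MEF on day 1, 3 for KD on day 1, 4 for KD day 0 against MEF, 2, 1 and 1 for EB with Dox and Flk1-positive against no Dox and Flk1-positive against Dox, and 2 and 1 for KD without Dox on days 1 and 2 against day 0. Calling by gene end or start, also chosen after seeing the data, kept each list's count within 1.5 times.

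The 4OHT difference in the share of floxed EB members called was 1.79 percentage points. It was 1.19 within 2 kb, 8.33 with scores of at least 10 and 8.93 at equal list length (exact permutation p of 0.667 and 0.333 for the last pair), and 0.595 to 2.98 with each replicate left out. With the replicate block it was 1.79 (exact sign-flip permutation p of 1.0, where 0.5 is the smallest possible), and the same-numbered samples did not deviate together over 10222 genes (r of -0.0521), so the numbers were not taken as pairs.

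Limits: 15 lists give no replicate error, list length and biology cannot be told apart between lists, and 20 members have no promoter entry.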

Other observations

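The marker lists for other cells were called most often in the 12 h EB lists, and the floxed EB lists overlapped the MEF lists for several of them. Of 8 endothelial markers, 0 to 2 were called in the MEF lists, 4 or 5 in the 12 h EB lists and 1 or 2 in floxed EB. Of 8 blood markers, 0 to 2 were called in the MEF lists, 4 in each 12 h EB list and 2 or 3 in floxed EB. Of 6 epithelial markers, 0 or 1 was called in the MEF lists, 6 in each 12 h EB list and 3 to 5 in floxed EB, and of 6 muscle markers none was called in the MEF lists, 2 in each 12 h EB list and 0 or 1 in floxed EB.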
